A study of Homo sapiens with 2 samples.

Results

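The Krüppel-like factors described here are 10 genes for zinc finger transcription factors, KLF2, KLF3, KLF4, KLF5, KLF6, KLF7, KLF9, KLF10, KLF11 and KLF13. They were taken by gene symbol, and all 10 were found among the 53737 genes of the deposited tables. RNA had been sequenced from SK-ES-1, an established Ewing sarcoma line from bone, wild type per the labels in both groups, with no treatment stated. There were 2 libraries, 1 of slow-cycling cells (SCC) and 1 of non-slow-cycling cells (non-SCC), as the sample titles were read with the help of the series title. The column headers use LRC and non-LRC, which the sources used here do not explain, and how the slow-cycling cells were separated is not given in them.

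Krüppel-like factors share 3 zinc fingers at the carboxyl end of the protein, with which they bind GC-rich and CACCC sequences in promoters, as do the related SP factors. The family divides by what lies outside the fingers. KLF2, KLF4, KLF5, KLF6 and KLF7 belong with the activators, KLF3 recruits the corepressor CtBP, and KLF9, KLF10, KLF11 and KLF13 bind the corepressor Sin3. Several members are early-response genes, transcribed soon after growth factors, shear stress or TGF-beta reach a cell, and KLF2 is known for holding T cells and endothelial cells in quiescence.

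The promoter stretches of 4 members are shown because 3 of them, KLF2, KLF6 and KLF9, were at least 1.5-fold higher in the SCC library, while KLF13 differed little. Each holds the 150 bases before the gene's start in RefSeq (GRCh38.p14), 5′ to 3′ on the strand of the gene. Capitals mark matches, on either strand, to any of the words searched. These were the GC box, spelled GGGCGG, the box of the family named CACCC after its letters, the cyclic AMP response element with the letters TGACGTCA, its variant with the letters TGACGCAA, the E-box with the letters CACGTG and an A and T word with the letters TATTTATA. The CArG box bound by SRF and the MEF2 consensus were searched by their degenerate patterns.
KLF2, chr19:16324676-16324825, plus strand: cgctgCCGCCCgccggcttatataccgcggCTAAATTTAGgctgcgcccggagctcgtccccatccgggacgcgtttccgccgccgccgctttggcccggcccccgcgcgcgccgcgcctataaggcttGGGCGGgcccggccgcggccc
KLF6, chr10:3785210-3785359, minus strand: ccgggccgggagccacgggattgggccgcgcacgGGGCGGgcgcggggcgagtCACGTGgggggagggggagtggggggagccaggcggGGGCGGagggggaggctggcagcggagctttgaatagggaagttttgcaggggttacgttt
KLF9, chr9:70414658-70414807, minus strand: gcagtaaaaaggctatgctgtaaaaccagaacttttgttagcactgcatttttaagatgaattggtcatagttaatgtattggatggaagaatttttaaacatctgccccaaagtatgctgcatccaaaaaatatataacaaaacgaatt
KLF13, chr15:31326685-31326834, plus strand: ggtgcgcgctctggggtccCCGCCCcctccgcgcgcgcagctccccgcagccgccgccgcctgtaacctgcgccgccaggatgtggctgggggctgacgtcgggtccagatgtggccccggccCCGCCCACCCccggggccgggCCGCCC

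The KLF2 stretch holds a match to the MEF2 consensus that begins 120 bases before the start (offset -120), besides GC boxes at offsets -145 and -21. In the whole 300-base windows of the RefSeq table, from 250 bases before to 50 after a start, that consensus occurs in 2.99% of 35116 promoters and, among the 13 windows of 8 members, in that of KLF2 alone. The MEF2 consensus was added to the search after this sequence had been seen. The KLF6 stretch holds an E-box at offset -97, between GC boxes at -116 and -61. E-boxes occur in 7.26% of all promoters and in 4 of the 13 windows, 1 each of KLF4, KLF6, KLF7 and KLF11. The KLF9 stretch, at 32% G and C against 76% for KLF2, 73.3% for KLF6 and 82% for KLF13, holds none of these words. In KLF13 a GC box and the CACCC word share a base.

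GC boxes occur in 8 of the 13 windows, against 45% of all promoters, and the CACCC word in 7 of the 13, against 59.9%. A gene can have up to 4 windows, as KLF7 has, and windows of 1 gene are not independent. TGACGTCA occurs in 1 KLF11 window (1.85% of all promoters) and the CArG box in 1 KLF7 window (1.29%). TGACGCAA and TATTTATA, in 0.513% and 1.44% of all promoters, were in none of the 13. KLF3 and KLF10 are not in the promoter table. Such matches describe letters in a window and were not tested for binding.

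Levels are given in per-million units, computed back from deposited values that were read as log2(unit + 1). The log2 ratio of a gene is its log2(unit + 1) in the SCC library minus that in the non-SCC library, a scale that understates the difference of low genes. Whether the units are corrected for gene length is not given in the sources used here, so levels are compared between libraries, and between genes only to name those nearest to KLF2. With 1 library per group there is no replicate error, no test and no p-value, and each difference is one between these 2 libraries. In bulk RNA, fewer cells of a type and less RNA per cell cannot be told apart.

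All 8 members at 1 unit or more in at least 1 library had a higher level in the SCC library, and each of these 8 had at least 1 unit in both. KLF2, KLF10, KLF9 and KLF6 were at least 1.5-fold higher, and KLF11, KLF7, KLF13 and KLF3 lay within 1.5-fold. No member was lower. KLF4 and KLF5 were close to 0 in both libraries and did not pass the level filter. Among all 13444 tested genes, 5.38% passed 1.5-fold upward and 1.41% downward, and 56.2% had a log2 ratio above 0. The median log2 ratio of the 8 members was 0.53, beside 0.03 over all tested genes.

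**Figure D1:**
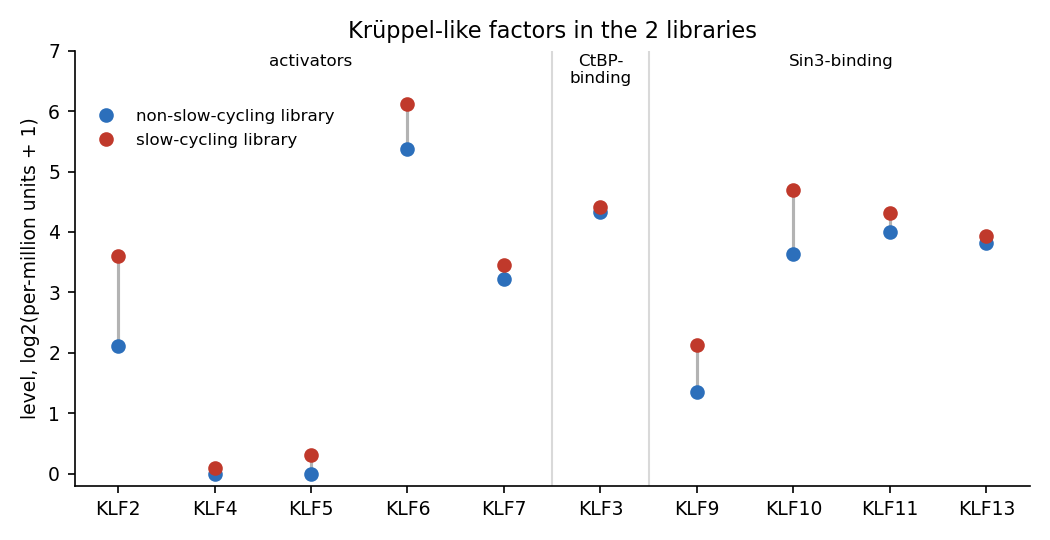
Level of each of the 10 Krüppel-like factors, as log2(per-million units + 1), in the SCC library (red) and the non-SCC library (blue), 1 library each, ordered by family branch; grey lines join the values of a gene. KLF2 has the widest gap (3.61 against 2.11), and KLF4 and KLF5 lie close to 0 in both libraries.

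Among the activators, KLF2 differed most. KLF2 (gene ID 10365, chromosome 19, 16324826 to 16328685, GRCh38.p14) was at 11.2 units in the SCC library and 3.33 in the other. Its log2 ratio was 1.5, or 2.82-fold on the log2(unit + 1) scale and 3.37 as a plain ratio of units. Of the 13444 tested genes, 74 (0.55%) had a higher ratio. Of tested genes with a mean of 4 to 16 units, as KLF2 has, 5.04% were at least 1.5-fold higher. The 4 KLF2 pseudogenes in the tables were listed at 0 in both libraries.

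KLF6 (1316, chromosome 10, 3775996 to 3785209) encodes a widely expressed factor described as a tumour suppressor and an early gene of tissue injury. It was at 68.7 units in the SCC and 40.5 in the non-SCC library, a log2 ratio of 0.75. This was the smallest ratio among the 4 members past 1.5-fold. Ratios of that size were rare at its level, since 0.714% of tested genes with a mean of 16 to 64 units were at least 1.5-fold higher. Over all tested genes, 3.34% had a higher ratio than KLF6.

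KLF7 (8609, chromosome 2, 207074137 to 207173851), a factor of developing neurons, was at 9.96 and 8.33 units in the SCC and non-SCC libraries. Its log2 ratio was 0.23, and 20.2% of tested genes had a higher one, so KLF7 was well inside the spread of all genes. The microRNA MIR7845, whose locus overlaps KLF7 and which was chosen after its values were seen, was at 0.541 units and listed at 0.

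KLF4 (9314, chromosome 9, 107484852 to 107489769), a factor of barrier epithelia and a reprogramming factor of pluripotent cells, was at 0.0713 units in the SCC library and listed at 0 in the other. KLF5 (688, chromosome 13, 73054976 to 73077538), known from dividing cells of the gut lining, was at 0.231 units and listed at 0. Both values lie far below the 1-unit filter, and no ratio was formed. A listed 0 may reflect an estimate that failed, and nothing is read from it about absence.

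KLF3 (51274, chromosome 4, 38664199 to 38701517) was the single CtBP-binding member. It was at 20.2 units in the SCC and 19.1 in the non-SCC library, and its log2 ratio of 0.08 was the smallest of the 8. The long non-coding gene KLF3-AS1 (chromosome 4, 38599093 to 38664893), whose locus overlaps that of KLF3, was at 1.44 units in the SCC and 0.0896 in the other library. KLF3-AS1 passed the filter through 1 library only, so it had to differ. The library kit keeps strand, but whether strand was used in counting is not given in the sources used here, so reads of the overlap cannot be told apart.

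Of the Sin3-binding members, KLF10 differed most. KLF10 (7071, chromosome 8, 102648784 to 102655725), named first as an early gene induced by TGF-beta, was at 25.1 units in the SCC and 11.4 in the non-SCC library. Its log2 ratio was 1.07, or 2.11-fold, with 215 tested genes (1.6%) higher. KLF10 and KLF2 were the only members at least 2-fold higher, a size that 1.90% of all tested genes reached. KLF10 shares with KLF6 the range of 16 to 64 units, in which 0.714% of genes were at least 1.5-fold higher.

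KLF11 (8462, chromosome 2, 10043550 to 10054836), the closest relative of KLF10 and likewise described as TGF-beta inducible, was at 18.9 and 15 units. Its log2 ratio of 0.32 was the largest of the members within 1.5-fold, and 13.7% of tested genes had a higher ratio. KLF10 and KLF11 lie on different sides of the 1.5-fold line, a gap with no replicate check.

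KLF9 (687, chromosome 9, 70384604 to 70414657), which glucocorticoid and thyroid hormones induce, was at 3.38 units in the SCC and 1.55 in the non-SCC library. Its log2 ratio was 0.78 and its plain ratio 2.18. Of tested genes with a mean of 1 to 4 units, 17.9% were at least 1.5-fold higher, so ratios like that of KLF9 were common at its level. KLF13 (51621, chromosome 15, 31326835 to 31435665), an activator of the chemokine gene CCL5 in T cells, was at 14.3 and 13.1 units, a log2 ratio of 0.12, with 34.5% of tested genes higher.

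**Figure D2:**
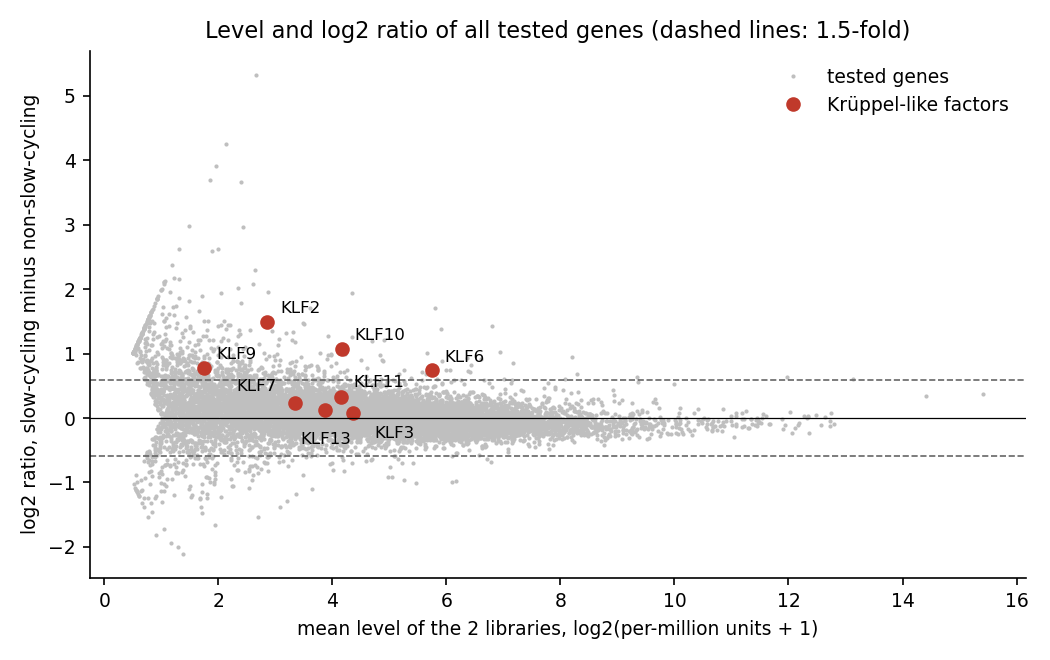
Log2 ratio (SCC minus non-SCC library) against mean level, log2(per-million units + 1), for the 13444 tested genes (grey) and the 8 Krüppel-like factors that passed the filter (red, labelled); dashed lines mark 1.5-fold. KLF2, KLF10, KLF9 and KLF6 lie above the upper line, and the cloud of all genes widens toward low levels, where KLF9 lies.

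The ratios of all genes moved with level, and the members were read against that. The median log2 ratio was 0.18 for tested genes with a mean of 1 to 4 units, 0.10 at 4 to 16, 0.02 at 16 to 64 and -0.06 at 64 or more. After subtraction of the median of the 500 genes of nearest level, an alternative added after seeing the data, KLF2 was at 1.37, KLF10 at 1.03, KLF6 at 0.75 and KLF9 at 0.61. All 4 stayed past 1.5-fold. KLF11 was at 0.28, KLF7 at 0.16, KLF13 at 0.04 and KLF3 at 0.03.

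The rest of the family lay close to 0. Of 8 other KLF genes, 3 were tested and none was 1.5-fold apart. KLF16, a Sin3-binding member, was at 45.5 units in the SCC and 47.1 in the other library, KLF15, a regulator of metabolism, at 4.91 and 5.43, and the CtBP-binding KLF12 at 3.63 and 3.43. Their log2 ratios were -0.05, -0.12 and 0.06. KLF14 was at 0.767 and 0.46 units, and KLF1, the erythroid factor of globin genes, was listed at 0 in the SCC library and at 0.56 in the other. KLF8, KLF17 and KLF18 were listed at 0 in both.

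Of the 9 SP genes, 4 were tested. The ubiquitous SP1 was at 75.5 and 74.0 units, SP3 at 42.9 and 41.7, SP2 at 20.9 and 20.4, and SP4 at 5.90 and 6.85. Their log2 ratios were 0.03, 0.04, 0.03 and -0.19, and SP5, SP6, SP7, SP8 and SP9 were listed at 0 in both libraries. The median over the 7 tested relatives was 0.03, the same at this rounding as over all tested genes. The 10 members are those proposed with earlier results of these data in view, so the gap between them and their relatives is a description.

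**Figure D3:**
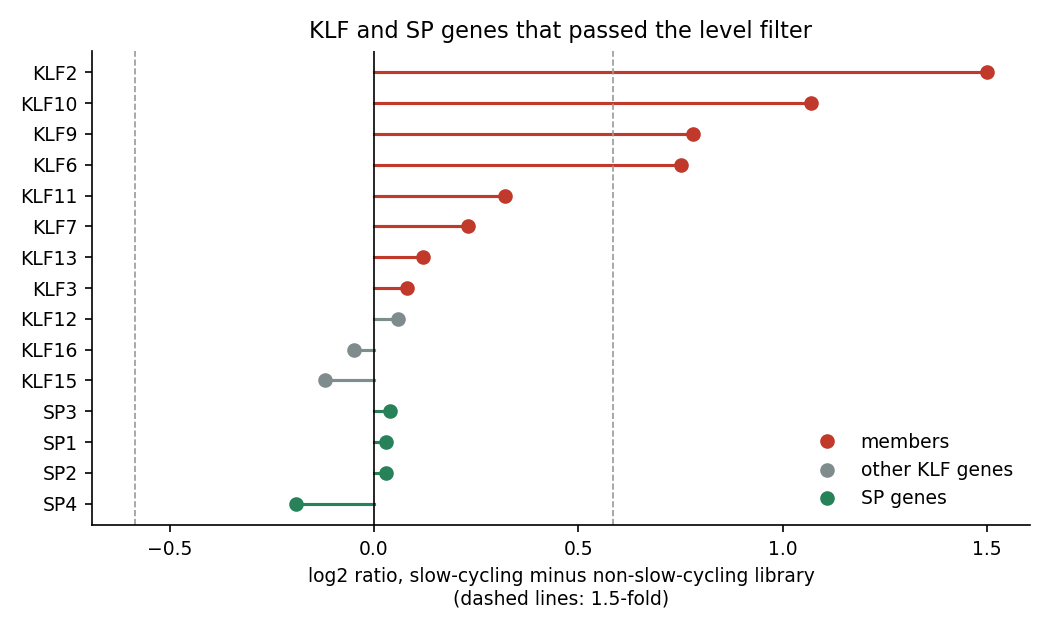
Log2 ratio (SCC minus non-SCC library) of each KLF and SP gene that passed the level filter, for the members (red), other KLF genes (grey) and SP genes (green); dashed lines mark 1.5-fold. The 8 members lie between 0.08 and 1.5, and the 7 relatives between -0.19 and 0.06.

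Genes upstream of the KLF genes passed 1.5-fold about as often as all tested genes did. Of 31 listed, 29 were tested, ratios were positive in 20, and 2 passed 1.5-fold upward and 0 downward, with a median log2 ratio of 0.15, where 5.38% of all tested genes passed 1.5-fold upward and 56.2% were positive. TGFB2, a TGF-beta ligand, was at 2.62 and 0.915 units and passed the filter through the SCC library only. The glucocorticoid receptor gene NR3C1 was at 3.35 and 1.88 units, a log2 ratio of 0.60 that lay within 1.5-fold once the median of all tested genes was set to 0. MEF2D, of the factor family that activates KLF2 and KLF4 in the ERK5 pathway, was at 21.9 and 15.7 units (0.45). SRF, which with its ETS partners drives early genes, was at 55.4 and 42.8 (0.36). The gene of ERK5 itself, MAPK7, chosen after its values were seen, was at 39.5 and 41.3.

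Genes for the partners and the turnover of KLF proteins differed little. All 15 cofactor genes were tested, with a median log2 ratio of 0.05. KAT2B, an acetyltransferase, was past 1.5-fold, at 1.13 and 0.122 units, and passed the filter through 1 library only. FHL3, a LIM protein that partners KLF3, was at 77.9 and 69.3 units. The CtBP genes were at 23.0 and 25.9 units (CTBP2) and 138 and 152 units (CTBP1, chosen after its values were seen). SIN3B, of the Sin3 corepressor, was at 36.8 and 33.0 units. Of 11 genes of ubiquitin enzymes that act on KLF proteins, none was 1.5-fold apart, and their median was 0.11. Those with the largest ratios were FBXO22, at 22.2 and 28.9 units (-0.37), SMURF2, at 19.2 and 15.7 (0.28), FBXW7, at 8.67 and 7.22 (0.23), and SIAH1, at 26.1 and 22.2 (0.23).

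Genes described as targets of KLF factors in other cells had ratios above 0 about as often as all tested genes did. Of 28 listed, 12 were tested and 12 were listed at 0 in both libraries, among them the KLF2 targets of lymphocytes and endothelium S1PR1 and THBD. Of the 12 tested, 7 had a ratio above 0 and 5 below, with a median of 0.04, where 56.2% of all tested genes were above 0. Past 1.5-fold higher were 3: the CDK inhibitor gene CDKN1A, at 1.67 units and listed at 0, its relative CDKN1C, at 6.29 and 3.24 units (0.78), and the adhesion gene L1CAM, at 16.3 and 9.33 (0.75). CDKN1A passed the filter through the SCC library only. Among all tested genes, 5.38% passed 1.5-fold upward. CCL5, the target of KLF13, was at 5.15 and 4.56 units (0.15).

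Glucocorticoid-responsive genes were set beside KLF9. Of 7 listed, 6 were tested, ratios were positive in 5 and past 1.5-fold upward in 2, and the median was 0.33. Among all tested genes, 56.2% had a positive ratio and 5.38% passed 1.5-fold upward. TSC22D3 was at 22.7 and 13.4 units, the phosphatase gene DUSP1, also an immediate early gene, at 62.1 and 38.2, and the metallothionein MT2A at 29.8 and 21.7. Their log2 ratios were 0.72, 0.69 and 0.44. FKBP5, a chaperone of the receptor, was lower, at 7.51 and 9.71 units (-0.33).

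Immediate early genes, which are transcribed within minutes of stimulation or handling of cells, moved with the members. None of the 10 members is on that list, which was written without KLF genes, although several members are early-response genes. Of 23 listed, 20 were tested, ratios were positive in 19 and past 1.5-fold upward in 14, and the median was 0.80. Over all tested genes, 56.2% had a positive ratio and 5.38% passed 1.5-fold upward. Of the 14, EGR4 and FOSL1, at 2.86 and 0.461 units, passed the filter through the SCC library only, which leaves 12. The summed level of the list was 3268 units in the SCC and 2165 in the non-SCC library. EGR3 was at 12.8 and 1.80 units, FOSB at 99.8 and 29.9 and ATF3 at 20.9 and 5.70, with log2 ratios of 2.30, 1.71 and 1.71, and EGR4 was at 2.97 and listed at 0. MYC, chosen after its values were seen, was at 375 and 381. The part of stimulation or handling in the ratios of the members was not tested.

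**Figure D4:**
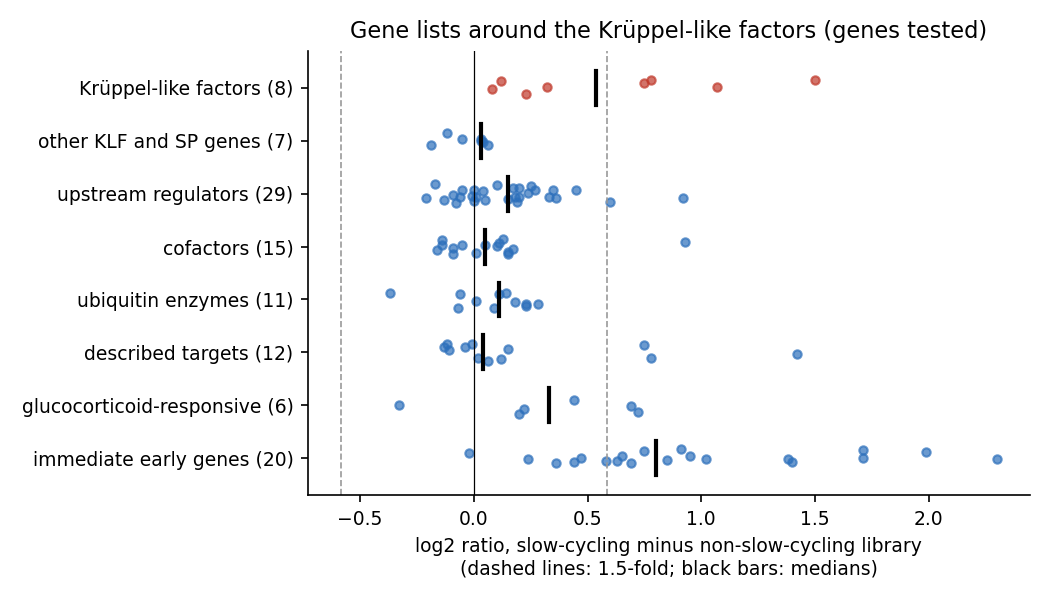
Log2 ratio (SCC minus non-SCC library) of each tested gene (points, spread vertically at random for legibility) in 8 lists, with the number tested in brackets, medians as black bars and 1.5-fold as dashed lines. The medians of the Krüppel-like factors (0.53) and of the immediate early genes (0.80) lie to the right, and that of the other KLF and SP genes is 0.03.

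The line's identity and other cell types were checked by marker lists. All 7 Ewing sarcoma markers were tested, 0 of them 1.5-fold apart, with summed levels of 1960 and 2000 units in the SCC and non-SCC libraries. NR0B1 (95.3 and 118 units), CD99 (213 and 245), NKX2-2 (99.3 and 111) and FLI1 (34.5 and 36.6) had the largest absolute ratios. These 4 were lower in the SCC library, and the other 3 had log2 ratios slightly above 0. The median of the 7 was -0.08. All 6 endothelial markers, among them PECAM1 and CDH5, and all 4 erythroid markers were listed at 0 in both libraries, so no marker of the cell types best known for KLF2 and KLF1 had a level above 0.

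Of the leukocyte markers PTPRC and CD3E were listed at 0 in both libraries, and LYZ was at 8.45 and 6.66 units, within 1.5-fold. Of 5 epithelial markers CDH1 and KRT19 were listed at 0, with sums of 20.2 and 21.2 units, and KRT8 (3.51 and 2.89 units), KRT18 (15.3 and 17.1) and EPCAM (1.37 and 1.21) lay within 1.5-fold. Of 6 fibroblast and pericyte markers 4 were tested and 2 were at least 1.5-fold higher, with sums of 30.0 and 20.5 units and none listed at 0 in both. COL1A1 was at 3.19 and 1.15 units and FAP at 3.67 and 1.74. Both have a mean of 1 to 4 units, a range in which 17.9% of tested genes were at least 1.5-fold higher. DCN was at 15.1 and 11.7 units and PDGFRB at 7.77 and 5.84. Their part in the ratios of KLF2 and KLF6 was not tested.

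The protein-coding genes most like KLF2 were named by distance in the plane of the 2 log2 levels, over 2 libraries, a measure that depends on how the units treat gene length. The nearest 3 were the inflammasome gene NLRP1, at 13.4 and 2.72 units, and the histone genes HIST2H2AA3, at 8.78 and 3.42, and HIST2H2BE, at 8.85 and 3.88. Their distances on the log2 scale were 0.32, 0.323 and 0.356. Histone genes come in near-identical copies that can share reads, which makes those values uncertain.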

How the data were processed

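Per the labels' protocols, total RNA was taken with a phenol-based reagent and libraries were made with a stranded kit that selects polyadenylated mRNA. The submitters' processing notes name hg38 as genome build. Which aligner, counter and annotation served is not given in the sources used here. The authors deposited 1 column of normalized values per library, per the file headers, which were read as log2 values, log2(unit + 1), since 1 subtracted from 2 raised to each value gives sums of 983638 and 984120 units in the SCC and non-SCC libraries. The low values showed no common step of 1 read: of 1318 entries between 0 and 1 unit in the SCC library, 1313 were distinct at 6 decimals (1212 of 1219 in the non-SCC library). So the depth of both libraries is unknown and no interval was formed.

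Of 53826 entries, 174 lines with a locus suffix were summed by gene ID, which left 53737 genes. Genes at 1 unit or more in at least 1 library were tested (13444, of which 11833 protein-coding by RefSeq, GRCh38.p14, in which 51252 gene IDs matched). Each library was assigned through the sample its file was deposited for. Calculations used Python 3.11.15, numpy 2.4.6 and pandas 2.3.3 and were tested on simulated data.

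The genes named are the 10 members, their KLF and SP relatives, up to 4 tested genes with the largest absolute log2 ratio of each other list, and the 3 genes nearest KLF2; genes named as listed at 0 were picked for that, and others are said to be chosen after their values were seen. The members and lists were chosen with earlier results of these data known. A few genes covered by this rule are left out of the text. Alternatives changed the scaling, pseudocount, level filter and fold threshold.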

Additional observations from a re-analysis of the deposited data

How the results depend on the processing

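No paired analysis was possible because each group has 1 library, and for the same reason none could be left out. Of 65 alternative values for the members, 56 stayed within 0.1 on the log2 scale, or within 1.5 times for a count, 9 moved further and 0 turned direction. With a fold threshold of 2, 2 members were higher, against 4 at 1.5. The median of the members was 0.32 for members at 5 units or more in 1 library and 0.31 with no level filter, which adds KLF4 and KLF5. The log2 ratio of KLF2 was 1.72 with a pseudocount of 0.1, 1.75 as a plain ratio and 1.37 relative to genes of like level, and that of KLF9 was 1.08, 1.12 and 0.61. The plain ratio and the level correction were added after seeing the data. In every alternative that kept the threshold of 1.5-fold and the level filter, 4 members were higher and 0 lower. At 5 units or more KLF9 dropped out, which left 3. Of 112 alternative values for the lists, 8 moved by more than this, 7 of them at the threshold of 2; the immediate early genes then had 7 higher, against 14. The depth of both libraries is unknown, so how far counting error reaches for low genes such as KLF9 could not be given.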
